A study of Homo sapiens with 38 samples.

Results

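Blocking mitochondrial respiration in glucose-starved cells was examined in HT-1080, an established human fibrosarcoma line whose cells carried mitochondrial DNA. The arrays were chosen by their titles and number 7 of the 38 in the series: 3 of starved cells given an inhibitor, 2 of cells starved without one and the 2 untreated controls named for them. The inhibitor arrays were glucose starvation with 100 nM rotenone (GS+Rot), the same treatment with the floating cells of the supernatant taken in (GS+Rot_S), and glucose starvation with 10 ng/ml antimycin A, also with floating cells (GS+AA_S). Starvation alone is written GS 1 and GS 2, and neither was labelled as holding floating cells. All 5 starved cultures were sampled at 18 h, as were the 2DG and TM cultures described later, with the same inhibitor doses. The untreated arrays are control 1, named for GS 1, and control 6, named for GS 2 and for all 3 inhibitor arrays. The series asked how tumour cell lines mount the unfolded protein response under stress, and its other arrays include the glucose analogue 2-deoxyglucose (2DG) and tunicamycin (TM), an inhibitor of protein N-glycosylation, each with and without the same inhibitors. Everything described here comes from 1 cell line, and the labels do not say whether GS+Rot and GS+Rot_S came from the same culture.

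Rotenone blocks complex I of the respiratory chain and antimycin A blocks complex III. Lack of glucose deprives the endoplasmic reticulum (ER) of sugar for glycoproteins, and unfolded proteins there activate 3 sensors, IRE1 (gene ERN1), PERK (gene EIF2AK3) and ATF6, which raise ER chaperones such as HSPA5 (GRP78). PERK also favours translation of ATF4, which with DDIT3 (CHOP) drives genes of amino acid supply and stress-induced death, and this ATF4 branch answers to amino acid lack and mitochondrial stress as well.

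The values are scaled signals, fluorescence summarised per probe set and set to one average on every array, so they are relative within an array and have no molecular unit. The cell line was checked first. Mesenchymal VIM lay between 8409 and 12266 on the 7 arrays, SPARC between 1289.7 and 2429, and the N-cadherin gene CDH2 between 140.2 and 271. The epithelial markers EPCAM, CDH1 and KRT19 reached no more than 11.02, 4.52 and 0.805, while the keratins KRT8 and KRT18 were present at 275 to 533 and 1809 to 2612. Of the mesenchymal list, COL1A2, S100A4, TAGLN, PDGFRB and THY1 stayed low on all 7 arrays, with a highest value of 69.2 in S100A4.

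The 3 inhibitor arrays stood apart from the rest of the series in array-wide measures. The ratio of 3' to 5' signal of ACTB, which rises when RNA is shorter or copied less completely, was 1.51 in GS+Rot, 1.67 in GS+Rot_S and 1.76 in GS+AA_S, against 1.26 and 1.42 in GS 1 and GS 2 and 1.22 and 1.24 in controls 1 and 6. The other 35 arrays of the series lay between 1.04 and 1.49, so all 3 inhibitor arrays were above every other array. For GAPDH the ratio was 0.976, 1.06 and 1.07 in the inhibitor arrays, against 0.950 and 0.919 in the GS arrays and 0.976 and 0.922 in the controls. The trimmed mean of the deposited signal was 99.0, 97.4 and 96.3 in the inhibitor arrays, against 128 and 127 with GS alone and 132 and 131 in the controls, with a range of 90.0 to 137 over the other 35 arrays. Probe sets for the bacterial poly-A control RNAs read 329, 454 and 468 in the inhibitor arrays, against 111 and 167 in the GS arrays and 104 and 154 in the controls, with a range of 55.5 to 308 over the other 35 arrays. The labels do not say whether such controls were added. These measures moved with the inhibitor in all 3 arrays, so RNA quality and labelling cannot be told apart from treatment, and fewer cells of a kind cannot be told apart from less RNA per cell.

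**Figure D1:**
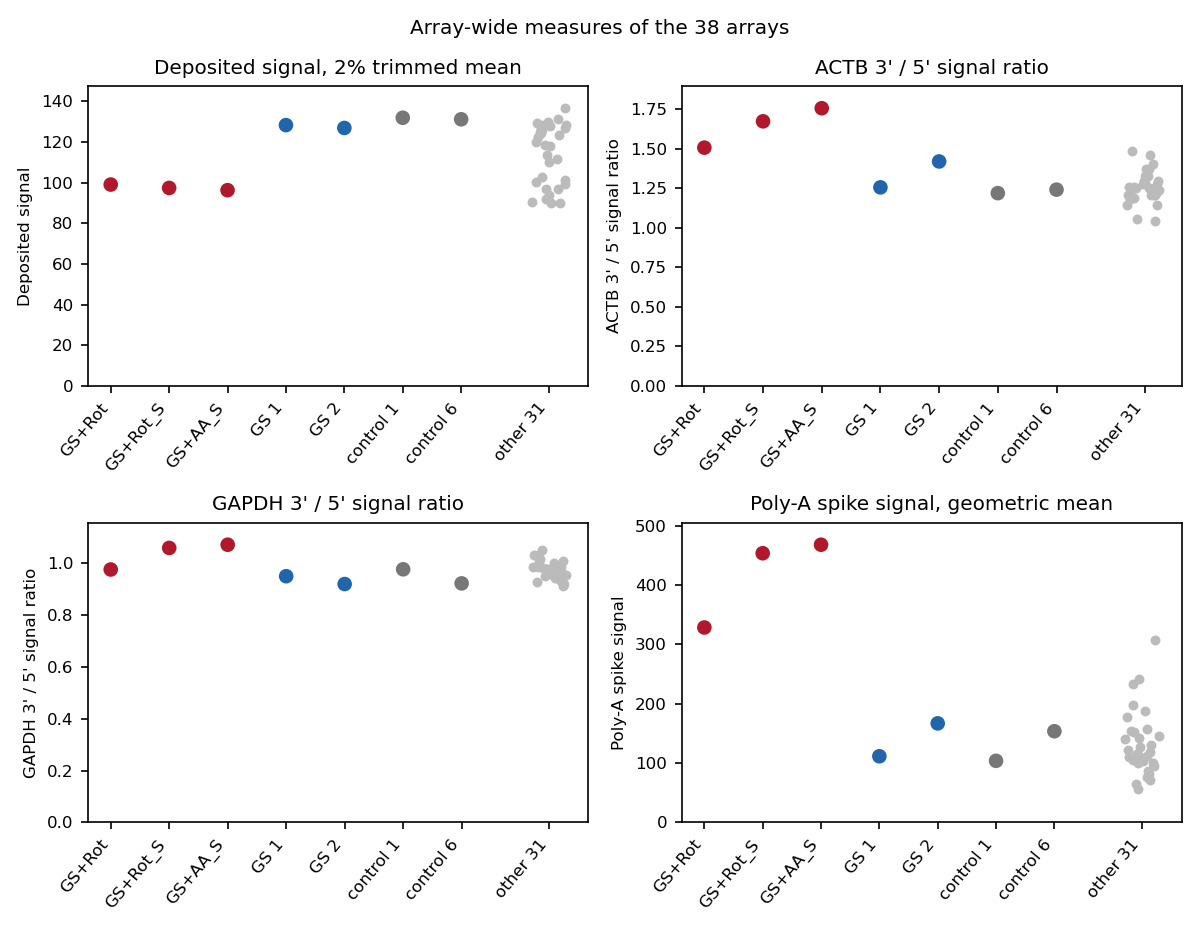
Trimmed mean of the deposited signal, 3' to 5' signal ratios of ACTB and GAPDH and the geometric mean of the poly-A control probe sets (vertical axes, arbitrary units or ratios), with 1 point an array: inhibitor arrays in red, GS alone in blue, controls 1 and 6 in dark grey and the 31 other arrays in light grey. The inhibitor arrays hold the 3 highest ACTB ratios, 1.51 to 1.76, and the 3 highest poly-A control signals, 329 to 468.

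The inhibitor arrays resembled each other closely. Over 6762 genes expressed on the arrays compared, the SD of the log2 difference was 0.23 between GS+Rot and GS+Rot_S, 0.28 between GS+Rot and GS+AA_S and 0.22 between GS+Rot_S and GS+AA_S, while 6, 23 and 9 genes differed by more than 2-fold. Between an inhibitor array and a GS array the SD was 0.72 to 0.81 and 1030 to 1261 genes differed by more than 2-fold. GS 1 and GS 2 differed from each other with an SD of 0.45 and in 223 genes. No 2 arrays held identical values. The inhibitor arrays were thus closer to each other than GS 1 was to GS 2. All inhibitor arrays share control 6, however, whereas GS 1 and GS 2 have different named controls. Those controls, 1 and 6, differed from each other with an SD of 0.34 and in 73 genes. The part of the shared control in the closeness of the inhibitor arrays was not tested. The spread between the inhibitor cultures may be technical. The p-values below pool the spread over the groups of a model of the whole series. They therefore do not measure the spread of these cultures alone.

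Which genes the inhibitors changed in starved cells was asked by setting the 3 inhibitor arrays against GS 1 and GS 2 in one limma model of all 38 arrays, with the named control as a block. Genes of the ER stress and ATF4 responses were lower with the inhibitor, genes of DNA replication, mitosis, histones, ribosomal proteins and nuclear-encoded respiratory chain subunits were higher, and several mitochondrially encoded transcripts were lower. Of 11436 genes tested, 3514 passed an adjusted p under 0.05, 30.7% of all, and 40.8% had an unadjusted p under 0.05; 1596 were higher (14.0%) and 1918 lower (16.8%). These calls leaned on 1 starved array: without GS 2, 511 genes passed. With the 3' to 5' ratios as covariates 609 genes passed, and with the poly-A control signal, a covariate chosen after seeing the data, 6 did. The ACTB ratio and the poly-A signal were highest on the 3 inhibitor arrays, so these fits cannot separate array quality from treatment. For DNAJB9 against the control the SE was 0.41 without covariates, 0.62 with the ratios and 1.19 with the poly-A signal. A call lost in these fits, here and below, therefore does not tell array quality from treatment. The median of all genes was -0.04 under the scaling used and -0.39 in the signals as deposited, where 722 genes were higher and 3755 lower. Differences below that shift of scale therefore depend on the scaling, and list medians are given beside the -0.04 of all genes. Counts within lists stand beside the 14.0% higher and 16.8% lower of all genes, and no list was tested against these shares.

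The ER chaperone HSPA5, the central chaperone of the ER lumen, had scaled signals of 6701, 6441 and 5583 in GS+Rot, GS+Rot_S and GS+AA_S, against 9771 and 8989 in GS 1 and GS 2 and 3333 and 3787 in controls 1 and 6. All 3 inhibitor arrays lay below both GS arrays and above both controls. HSPA5 fell by 0.61 on the log2 scale (SE 0.15, adjusted p = 0.00444) against starvation alone and remained 0.79 above the control (adjusted p = 0.0012). A second probe set of the gene read 174, 123 and 159 in the inhibitor arrays, against 2526 and 2340.1 with GS alone and 148 and 213 in the controls, so it showed the inhibitor arrays at control level. As a mean difference from own control, the inhibitor effect was -0.68 for the probe set used and -4.22 for the other. The HSPA5 call did not hold with 3' to 5' ratios as covariates (-0.39, adjusted p = 0.402), with the poly-A signal (-0.24, adjusted p = 0.848), without GS 2 (-0.83, adjusted p = 0.0753) or with GS+Rot as the only inhibitor array (-0.50, adjusted p = 0.0927).

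HSP90B1, the ER form of the HSP90 chaperone, read 2506, 2148 and 2582 with inhibitor, against 6028 and 6333 with GS alone and 1774 and 1715 in the controls. The groups did not overlap, and the gene fell by 1.37 (SE 0.19, adjusted p = 4.81e-05). DNAJB9, a co-chaperone of HSPA5 and a target of the XBP1 branch, read 206, 164 and 119 against 1207 and 823 with GS alone and 169 and 214 in the controls. Its inhibitor values were within or below the control range, and it fell by 2.55 (SE 0.41, adjusted p = 0.000142). HERPUD1, which helps to pass ER proteins to degradation, read 591, 652 and 567 with inhibitor, against 2711 and 2833 with GS alone and 585 and 1108 in the controls. It fell by 2.44 (SE 0.30, adjusted p = 1.77e-05), again without overlap. XBP1, the transcription factor whose mRNA IRE1 splices, read 128, 142 and 163 with inhibitor, against 853 and 686 with GS alone and 206 and 348 in the controls. It fell by 2.47 (SE 0.25, adjusted p = 2.97e-06) and lay below both controls on every inhibitor array; an array of this type does not report the splicing itself. With the 3' to 5' ratios as covariates XBP1 (-2.49), HERPUD1 (-2.29) and DNAJB9 (-1.86) passed, with adjusted p = 0.00543, 0.0115 and 0.0491, while with the poly-A signal none of these 3 passed (adjusted p = 0.0742, 0.193 and 0.462).

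The promoters of a few of these genes are shown because they hold the letters of elements named in the ER stress and amino acid responses. Each is the 250 bases before a RefSeq start on GRCh38.p14, printed 5' to 3' in the gene's direction, with the matching letters in capitals; the base before the start is position -1. HSPA5 is chr9:125241344-125241593 on the minus strand, with the ER stress element, CCAAT and CCACG with 9 bases between them, at -66 to -48. HSP90B1 is chr12:103930160-103930409 on the plus strand, with that element at -194 to -176 and, on the other strand, at -89 to -71. HERPUD1 is chr16:56931892-56932141 on the plus strand, with the related element, ATTGG and CCACG with 1 base between them, at -117 to -107 and the amino acid response element TGATGNAA on the other strand at -176 to -169. ASNS is chr7:97872409-97872658 on the minus strand, 1 of 2 RefSeq starts listed, with TGATGNAA at -68 to -61, and CHAC1 is chr15:40953221-40953470 on the plus strand, with it on the other strand at -209 to -202.
HSPA5: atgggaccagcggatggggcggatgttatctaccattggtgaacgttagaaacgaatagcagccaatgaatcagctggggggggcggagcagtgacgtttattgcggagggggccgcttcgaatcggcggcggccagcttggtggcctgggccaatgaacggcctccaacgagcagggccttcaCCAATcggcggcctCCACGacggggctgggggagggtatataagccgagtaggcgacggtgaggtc
HSP90B1: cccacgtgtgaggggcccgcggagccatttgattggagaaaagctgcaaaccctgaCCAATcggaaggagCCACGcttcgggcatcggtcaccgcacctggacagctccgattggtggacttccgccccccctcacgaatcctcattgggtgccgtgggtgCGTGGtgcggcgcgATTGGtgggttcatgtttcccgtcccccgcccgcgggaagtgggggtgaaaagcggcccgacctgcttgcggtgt
HERPUD1: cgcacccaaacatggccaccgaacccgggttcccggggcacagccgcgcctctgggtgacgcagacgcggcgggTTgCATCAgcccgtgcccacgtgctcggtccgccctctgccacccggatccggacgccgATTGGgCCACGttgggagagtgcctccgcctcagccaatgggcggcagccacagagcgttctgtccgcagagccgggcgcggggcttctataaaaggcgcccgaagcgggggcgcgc
ASNS: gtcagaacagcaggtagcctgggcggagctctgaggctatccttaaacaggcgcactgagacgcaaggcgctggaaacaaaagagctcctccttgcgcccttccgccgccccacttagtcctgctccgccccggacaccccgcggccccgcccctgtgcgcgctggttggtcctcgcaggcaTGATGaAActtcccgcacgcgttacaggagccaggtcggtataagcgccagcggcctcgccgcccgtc
CHAC1: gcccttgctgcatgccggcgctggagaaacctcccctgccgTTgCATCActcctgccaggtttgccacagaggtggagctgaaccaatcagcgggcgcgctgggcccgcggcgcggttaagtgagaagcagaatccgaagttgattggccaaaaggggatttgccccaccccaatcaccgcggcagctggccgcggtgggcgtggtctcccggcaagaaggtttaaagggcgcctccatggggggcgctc

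Searched on both strands of such windows, the ER stress element was found in 26 of 35116 promoters (0.074%), the related element in 18 (0.051%) and TGATGNAA in 1104 (3.14%). Among the ER chaperones, 26 of the 28 measured genes had a promoter in the table; 7 held the longer element (CALR, CANX, CRELD2, ERO1B, HSP90B1, HSPA5 and PDIA6), 2 the shorter one (HYOU1 and SDF2L1) and 0 TGATGNAA. Of the 29 promoters found for the 37 measured ATF4 and CHOP genes, 7 held TGATGNAA (ASNS, ATF3, CEBPG, CHAC1, FGF21, JDP2 and SLC1A5) and 0 held the ER stress element. The elements were therefore split between the lists as letters in these windows. TRIB3, DDIT3, SESN2, DNAJB9 and SEL1L had no match in their windows, which says only that these letters were not there.

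Across the list of ER chaperones and folding enzymes, 28 of 30 genes were measured, 21 were lower, 1 was higher and the median was -1.04. In 23 of the 28, all 3 inhibitor arrays lay below both GS arrays as differences from own control, against 32.0% of all genes. ERO1B, an oxidase that drives disulfide formation, fell by 2.89, and SDF2L1, a co-chaperone complex member, fell by 2.51 with 287, 272 and 289 in the inhibitor arrays against 1228 and 1643 with GS alone and 225 and 295 in the controls. SDF2L1 was thus at control level with the inhibitor. DNAJC3, which restrains the PERK pathway, fell by 2.34, HYOU1 by 2.19 and the lectin chaperone CANX by 0.97. CALR (-0.11, adjusted p = 0.791) and PPIB (-0.02, adjusted p = 0.932) did not pass. The rise in the list was FKBP11, a peptidyl-prolyl isomerase, at 203, 241 and 315 with inhibitor against 75.8 and 122 with GS alone and 163 and 212 in the controls (1.06, SE 0.26, adjusted p = 0.00459).

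Genes of ER-associated degradation, translocation and traffic followed, with 13 of 23 measured genes lower, 1 higher and a median of -0.77. SEL1L, the adaptor of the HRD1 ubiquitin ligase, read 153, 149 and 159 with inhibitor, against 1531 and 1310.2 with GS alone and 271 and 294 in the controls. Every inhibitor array was below both controls, and SEL1L fell by 3.13 (SE 0.37, adjusted p = 1.21e-05). The coat protein gene SEC24D fell by 1.73 and the lectin gene ERLEC1 by 1.52, whereas the translocon component SEC62 rose by 0.83 (adjusted p = 0.00089). Of the 11 UPR sensors and transcription factors, 7 were lower and 0 higher, with a median of -0.84. ERN1 read 46.9, 54.6 and 45.7 with inhibitor against 230.1 and 193 with GS alone and 53.3 and 92.2 in the controls, and fell by 2.11 (SE 0.37, adjusted p = 0.000302). Its other 2 probe sets did not share this, with differences between means from own control of -0.15 and 0.02, against -2.35 for the probe set used. EIF2AK3 fell by 1.70 (adjusted p = 0.00206) and ATF6 fell by 1.4955 (adjusted p = 3.77e-05). The direction of these 3 lists was the same with the deposited signals (medians -1.42, -1.15 and -1.22) and with quantile normalization (-1.25, -0.91 and -1.13).

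The deepest falls lay in the ATF4 and CHOP list, where 31 of 37 measured genes were lower, 0 were higher and the median was -1.76. ATF4 itself read 3094, 3059 and 3079.5 with inhibitor, against 5117 and 4741 with GS alone and 2352 and 4002 in the controls. The inhibitor values were below both GS arrays and between the controls, and ATF4 fell by 0.84 (SE 0.17, adjusted p = 0.00123). The stress-induced pseudokinase gene TRIB3 read 293, 317 and 367 with inhibitor, against 5039 and 4488 with GS alone and 627 and 1278 in the controls. It fell by 4.06 (SE 0.33, adjusted p = 2.55e-07), a ratio of 0.0598, and was also 1.66 below the control (adjusted p = 0.00205). ASNS, asparagine synthetase, read 416, 468 and 356 with inhibitor, against 3825 and 4491 with GS alone and 562 and 1223 in the controls. ASNS fell by 3.65 (SE 0.27, adjusted p = 9.36e-08) and by 1.34 against the control (adjusted p = 0.00203). Both genes were thus lower on all 3 inhibitor arrays than on either control. With the 3' to 5' ratios as covariates TRIB3 (-4.01, adjusted p = 0.00051) and ASNS (-3.51, adjusted p = 0.000948) passed, and with the poly-A signal TRIB3 did (-5.01, adjusted p = 0.0428) and ASNS did not (-3.11, adjusted p = 0.115).

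DDIT3, the transcription factor CHOP, read 418, 219.8 and 153 with inhibitor, against 1470.2 and 1107 with GS alone and 51.0 and 180.4 in the controls. The inhibitor arrays were below both GS arrays and spread over the upper part of the control range and beyond it. DDIT3 fell by 2.70 (SE 0.64, adjusted p = 0.00349), but not past the threshold with the 3' to 5' ratios as covariates (-0.46, adjusted p = 0.815), with the poly-A signal (-2.63, adjusted p = 0.566) or with GS+Rot as the only inhibitor array (-1.92, adjusted p = 0.121). CHAC1, an enzyme that degrades glutathione, read 7.28, 21.5 and 2.66 with inhibitor, against 361 and 111 with GS alone and 18.6 and 313 in the controls. Control 6 was thus high for CHAC1, and its fall of 4.37 (SE 0.81, adjusted p = 0.00049) did not pass with the 3' to 5' ratios as covariates (-3.06, adjusted p = 0.203) or the poly-A signal (-5.43, adjusted p = 0.318). INHBE, a TGF-beta family ligand, gave the largest fall of all genes at -4.50 (SE 0.61, adjusted p = 3.69e-05), with 35.8, 25.8 and 25.2 in the inhibitor arrays against 304 and 426 with GS alone and 19.3 and 360.4 in the controls. Control 6 was again the higher control. ATF3, an early stress factor, read 314, 182 and 198 with inhibitor, against 1373 and 279.6 with GS alone and 84.0 and 210.3 in the controls. Its groups overlapped, it did not pass (-1.19, adjusted p = 0.109), and 1 of its other probe sets had the opposite sign (0.70).

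Other members of the list were equally low. The mTORC1 brakes DDIT4 and SESN2 fell by 3.48 and 3.24, the cystine carrier SLC7A11 by 3.12, and NUPR1, a stress-induced chromatin protein, by 3.03. The serine synthesis enzymes PHGDH and PSAT1 fell by 2.04 and 1.73 and were also 1.05 and 0.97 below the control (adjusted p = 0.00299 and 0.00417). DDIT4 rested on unequal starved arrays, 2035 in GS 1 and 462 in GS 2, against 147, 88.2 and 60.2 with inhibitor. Genes that did not pass were GDF15 (-0.26), FGF21 (-0.31), PPP1R15A (-0.65), SLC6A9 (-1.02), ATF5 (0.27) and ATF3. The aminoacyl-tRNA synthetases, which charge tRNAs with amino acids, were lower in 10 of 15 measured genes and higher in 1, with a median of -0.80. WARS1 read 362, 386 and 444 with inhibitor against 1866 and 2713 with GS alone and 457 and 688 in the controls, and fell by 2.77 (SE 0.30, adjusted p = 4.46e-06). AARS1 and SARS1 fell by 2.02 and 1.99, and HARS1 rose by 0.52.

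**Figure D2:**
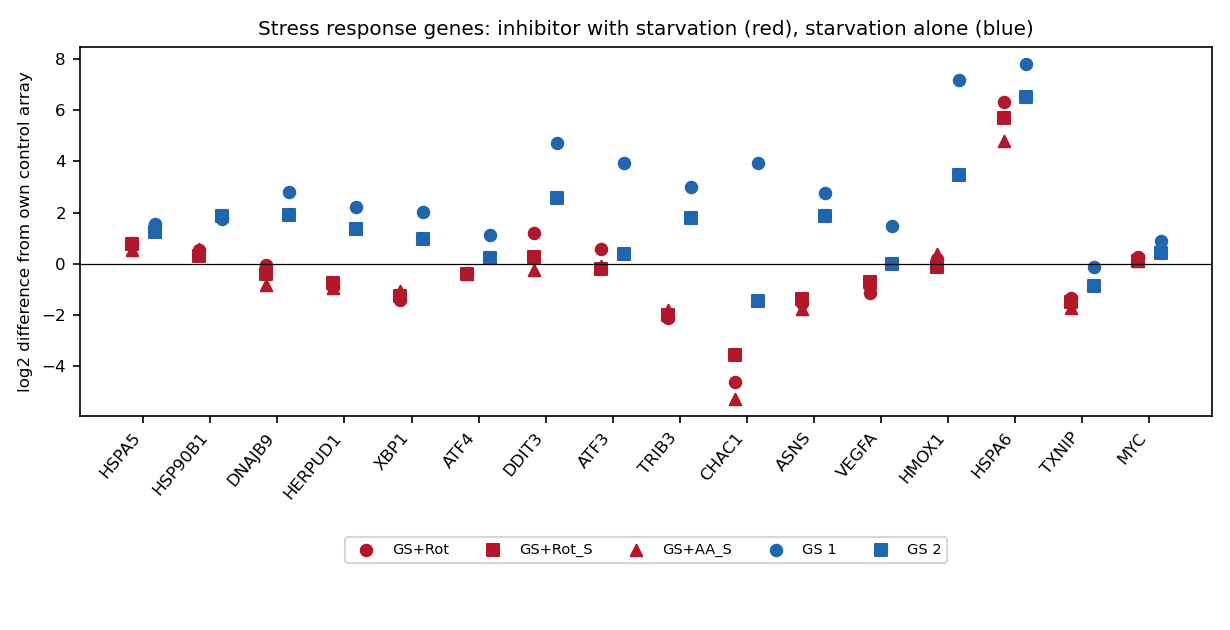
Log2 difference of scaled signal from the array's own control (vertical axis) for 16 stress response genes (horizontal axis), with 1 point an array: GS+Rot, GS+Rot_S and GS+AA_S in red and GS 1 and GS 2 in blue. For TRIB3 the red points lie at -2.11 to -1.78 and the blue ones at 3.00 and 1.81, while for HSPA6 both groups lie well above 0.

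Not every stress gene fell. HSPA6, an inducible cytosolic HSP70 that unstressed cells hardly express, read 1506, 979.6 and 527 with inhibitor, against 5582 and 1735 with GS alone and 19.4 and 13.4 in the controls. The inhibitor arrays were below the GS arrays but far above the controls; the difference from GS did not pass (-1.23, adjusted p = 0.394) and that from the control did (5.92, SE 1.02, adjusted p = 0.000614). Of 16 cytosolic heat shock genes, 5 were higher than with GS alone and 0 lower, with a median of 0.21 that was -0.16 in the deposited signals. DNAJB1, an HSP40 co-chaperone, read 6688, 7139 and 3430.1 with inhibitor against 5010.0 and 979 with GS alone and 591 and 542 in the controls. Its groups overlapped through GS 1; it passed at 1.92 (SE 0.59, adjusted p = 0.0189), but its other probe set gave -0.63 as the difference between means from own control. HSP90AA1 rose by 0.86 (adjusted p = 0.000127) and DNAJA1 by 1.19 (adjusted p = 0.00155). HSPE1, the mitochondrial co-chaperonin, read 6794, 7961 and 7711 with inhibitor against 3954 and 2318 with GS alone and 4422 and 4431 in the controls, and rose by 1.49 (SE 0.21, adjusted p = 6.03e-05). In its list of mitochondrial chaperones and proteases, 4 of 19 genes were higher and 3 lower, beside 14.0% and 16.8% of all genes. The protease gene LONP1 was among the lower ones at -1.14 (adjusted p = 0.000193).

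Oxidative stress genes moved in both directions. HMOX1, heme oxygenase, read 68.7, 53.2 and 78.1 with inhibitor, against 5627 and 715 with GS alone and 33.4 and 59.0 in the controls. The 3 inhibitor arrays were near the controls and far below both GS arrays, which themselves differed widely; HMOX1 fell by 4.26 (SE 0.66, adjusted p = 0.000115). Of 16 genes listed as targets of the antioxidant factor NRF2, 6 were lower and 3 higher, with a median of -0.45, and 11 were lower and 1 higher in the deposited signals. GCLC, which starts glutathione synthesis, fell by 1.67 and the autophagy receptor SQSTM1 by 1.48, while thioredoxin (TXN) rose by 0.71 and NQO1 by 0.45. TXNIP, a glucose-dependent inhibitor of thioredoxin, read 26.7, 23.5 and 19.4 with inhibitor against 47.0 and 39.4 with GS alone and 50.9 and 75.7 in the controls. It did not pass against GS (-0.84, adjusted p = 0.0797) and was lower than the control (-1.32, adjusted p = 0.0141), and 0 of the 7 glucose-sensing MondoA genes passed in either direction, though 4 were lower in the deposited signals and 1 after quantile normalization.

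Hypoxia and energy genes gave a similar picture in part. VEGFA, the angiogenic growth factor, read 385, 521 and 506 with inhibitor, against 1487 and 860.3 with GS alone and 533 and 858 in the controls. The inhibitor arrays lay below all 4 others, and VEGFA fell by 1.24 (SE 0.35, adjusted p = 0.0119). In 6 of 24 alternative settings it did not pass. As differences between means from own control, its other probe sets gave -1.46, -1.09 and -0.25, against -1.61 for the one used. Of 16 targets of the hypoxia-inducible factor, 9 were lower and 0 higher, with a median of -0.76; BNIP3L, a mitophagy receptor, fell by 1.70, the MYC antagonist MXI1 by 1.93 and the collagen cross-linker LOX by 1.66. Glycolysis was split, with 7 of 21 genes higher and 5 lower and a median of 0.15. In the deposited signals 1 was higher and 8 lower (median -0.22), and after quantile normalization 1 higher and 4 lower (median -0.11). The glucose transporter SLC2A3 fell by 1.32 and hexokinase HK2 by 1.23, while lactate dehydrogenase LDHA rose by 0.68, a rise of the size that the scaling can move. Other probe sets of HK2 gave -0.15 and -0.29 between means from own control, against -1.48 for the one used. Among AMPK subunits and mTORC1 brakes 6 of 15 were lower and 1 higher (median -0.65), and the AMPK beta subunit PRKAB2 fell by 1.69 whereas the catalytic subunit PRKAA1 rose by 0.83.

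**Figure D3:**
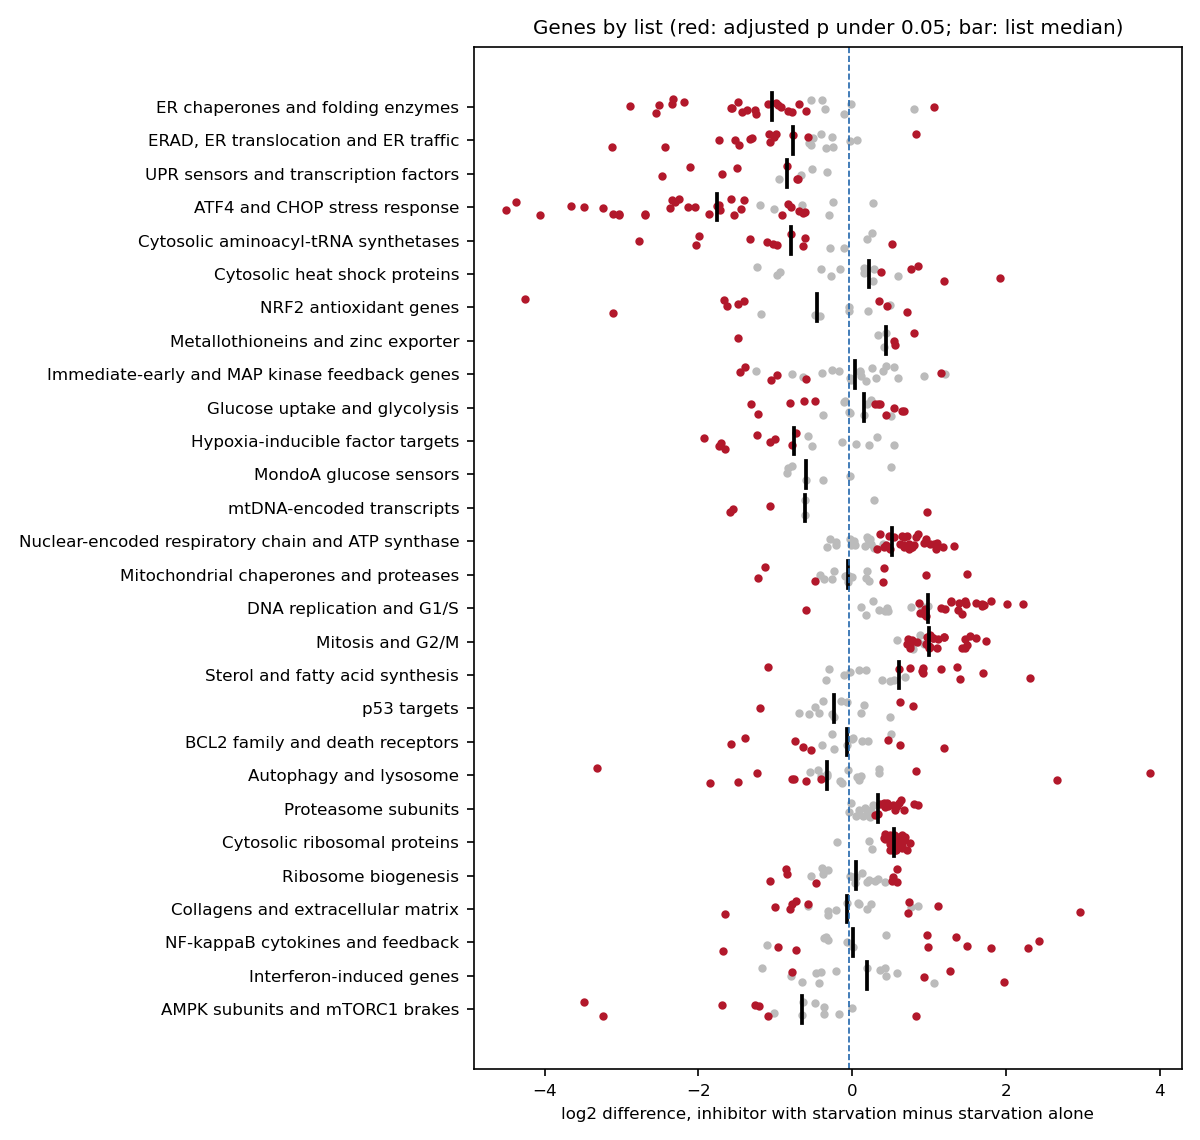
Log2 difference of GS with inhibitor minus GS alone (horizontal axis) for each measured gene of the 28 lists (vertical axis), with genes past an adjusted p of 0.05 in red, others in grey, a black bar at the list median and a dashed line at the median of all genes, -0.04. The medians of the ER chaperones (-1.04) and of the ATF4 and CHOP genes (-1.76) lie to the left, and those of replication (0.98) and mitosis (1.00) to the right.

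Cell cycle genes were higher with the inhibitor than with starvation alone. Of 33 measured genes of DNA replication and G1/S, 22 rose and 1 fell, with a median of 0.98; of 31 mitotic genes, 25 rose and 0 fell, with a median of 1.00. All 31 mitotic genes had the 3 inhibitor arrays above both GS arrays, and so had 29 of the 33 replication genes, where 28.7% of all genes did. E2F1, a transcription factor of S phase entry, read 158, 206 and 184 with inhibitor, against 37.99 and 32.3 with GS alone and 123 and 137 in the controls. E2F1 rose by 2.22 (SE 0.35, adjusted p = 0.000135) and was not different from the control at the threshold (0.48, adjusted p = 0.382). MCM10, a helicase loading factor, read 656, 641 and 758 with inhibitor against 261 and 153 with GS alone and 1007 and 803 in the controls. It rose by 2.01 (SE 0.33, adjusted p = 0.000164) and stayed below both controls. The thymidylate synthase gene TYMS rose by 1.801 and CDK2 by 1.71, and CDK4 was the one that fell, by 0.61.

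Among mitotic genes KIF20A, a kinesin of cytokinesis, read 869.7, 759.7 and 906 with inhibitor, against 238 and 264 with GS alone and 806 and 699 in the controls. Its inhibitor values were at the level of the controls, and KIF20A rose by 1.74 (SE 0.38, adjusted p = 0.00184). AURKB, a mitotic kinase, rose by 1.61 and CCNB1, cyclin B1, by 1.53. Against the own control, 0 of the replication genes were higher and 1 lower (median -0.11), and 2 of the mitotic genes were higher and 0 lower, with a median of 0.09 that was -0.33 in the deposited signals and -0.01 after quantile normalization. Both lists kept a positive median against GS in the deposited signals, 0.65 and 0.62, and after quantile normalization, 1.03 and 0.98.

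Histone genes were grouped after their values were seen, and 18 of 21 measured replication-dependent histone genes were higher than with GS alone and 0 lower, with a median of 1.93. H2AC8 read 204, 289 and 162 with inhibitor, against 17.3 and 11.6 with GS alone and 12.6 and 6.47 in the controls. H2BC14 read 227, 334 and 252 against 12.1 and 20.7 with GS alone and 45.4 and 38.9 in the controls. All 3 inhibitor arrays were far above the other 4 in both genes. The GS values of both lay under the filter level of 40% of the trimmed mean, so the sizes depend on the 5% offset. H2AC8 rose by 3.70 (SE 0.59, adjusted p = 0.000128) and H2BC14 by 3.57 (SE 0.45, adjusted p = 2.02e-05). Unlike the other cell cycle genes, 12 of these 21 were also higher than the control (median 1.56), though this contrast of the 2 groups of genes was not tested. Most mRNAs of these histones end without a poly-A tail. The poly-A control signal was highest on the same 3 arrays, and its part in the histone values was not tested.

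The largest rise of all was in TAF1D, which encodes an RNA polymerase I factor and is a host of small nucleolar RNAs. It read 1305, 1717 and 1638 with inhibitor, against 40.1 and 64.6 with GS alone and 61.8 and 39.6 in the controls. The 4 other arrays were alike and low, and TAF1D rose by 4.76 (SE 0.33, adjusted p = 8.52e-08), a ratio of 27.1. Of 7 small nucleolar RNA hosts, a group formed after the values were seen, 4 rose and 0 fell against GS alone, and 6 rose and 0 fell against the control. GAS5, a non-coding host, read 224, 397 and 292 with inhibitor against 33.4 and 35.6 with GS alone and 42.8 and 27.3 in the controls, a rise of 3.03 (adjusted p = 7.48e-05). VMP1, an ER membrane protein of autophagosome formation, read 1166, 1392 and 841 against 77.6 and 63.4 with GS alone and 109 and 136 in the controls, and rose by 3.87 (SE 0.27, adjusted p = 8.52e-08). The non-coding RUSC1-AS1 rose by 4.27, with 354, 392 and 281 with inhibitor against 17.4 and 9.83 with GS alone and 25.005 and 30.7 in the controls. These genes were low in all 4 arrays without inhibitor. GAS5 and RUSC1-AS1 lay there under the filter level of 40% of the trimmed mean, so the sizes of their rises depend on the 5% offset.

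ID1 and ID3, inhibitors of basic helix-loop-helix transcription factors, followed another pattern. ID3 read 2992, 2957 and 2725 with inhibitor, against 479 and 75.4 with GS alone and 1029 and 631 in the controls. ID1 read 2020.2, 2473 and 2481 against 562 and 163 with GS alone and 2391 and 1768 in the controls. ID3 was thus above the controls and ID1 at their level, while both GS arrays were low and differed from each other. ID3 rose by 4.69 (SE 0.79, adjusted p = 0.000205) and ID1 by 3.46 (SE 0.50, adjusted p = 6.36e-05), and against the control ID3 was 2.65 higher (adjusted p = 0.0243) and ID1 0.72 (adjusted p = 0.354). The remaining genes among the 12 largest rises, SRGAP2, NOMO3, H3C8, H3C3 and RASEF, rose by 3.31 to 3.57, though 1 other probe set of RASEF gave -0.77 between means from own control. H3C8 read 14.1 and 1.66 and H3C3 24.3 and 4.04 with GS alone, under the filter level of 40% of the trimmed mean. SRGAP2 and NOMO3 averaged 16.8 and 21.2 over all 38 arrays. For H3C8, H3C3, SRGAP2 and NOMO3 the sizes therefore depend on the 5% offset. Beside stress genes, the 12 largest falls held TNFSF15, a cytokine, with -4.29, MYCT1 with -4.22, SPX with -4.03, RAB39B, a small GTPase, with -3.64, JMY, an actin nucleator, with -3.55, and WIPI1, an early autophagy protein, with -3.32. JMY read 33.6, 33.1 and 33.3 with inhibitor, against 452 and 424 with GS alone and 125 and 152 in the controls, so that it was below both groups.

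**Figure D4:**
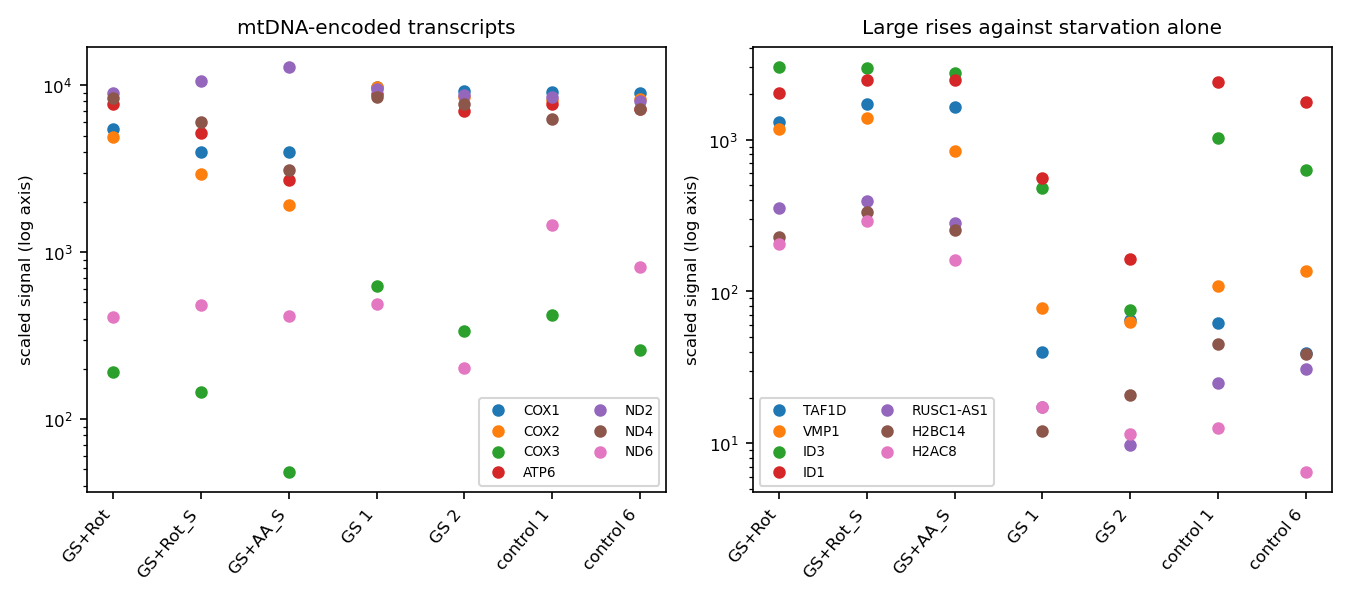
Scaled signal per array on a log axis for 7 mitochondrially encoded transcripts (left) and 7 genes with large rises (right), in the order GS+Rot, GS+Rot_S, GS+AA_S, GS 1, GS 2, control 1 and control 6. COX2 is lower on the inhibitor arrays, 1906 to 4882, than on the other 4, and TAF1D is higher, 1305 to 1717 against at most 64.6.

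Of 7 measured transcripts of mitochondrial DNA, 3 were lower and 1 higher, with 5 lower and 1 higher both in the deposited signals and after quantile normalization. COX1 (MT-CO1), COX2 (MT-CO2) and COX3 (MT-CO3) encode the core of cytochrome c oxidase in mitochondrial DNA. COX1 read 5501, 3978 and 4007 with inhibitor, against 9781 and 9243 with GS alone and 9114 and 9025 in the controls. COX2 read 4882, 2931 and 1906 against 9708 and 8453 with GS alone and 8136 and 8300.1 in the controls. The inhibitor arrays were below all 4 others for both, with GS+AA_S lowest for COX2. COX1 fell by 1.07 (SE 0.17, adjusted p = 0.000118), COX2 by 1.54 (SE 0.29, adjusted p = 0.000464) and COX3 by 1.59 (SE 0.41, adjusted p = 0.00584). ND2 (9030.0, 10659 and 12827 with inhibitor against 9501 and 8779 with GS alone) did not pass at 0.28, nor did ATP6 (-0.62, adjusted p = 0.121) or ND4 (-0.61, adjusted p = 0.12). ND4 read 8418, 5997 and 3106 with inhibitor against 8539 and 7764 with GS alone and 6299 and 7215 in the controls, so that GS+Rot overlapped the other groups and GS+AA_S did not. ND6 rose against GS by 0.97 and was 0.79 below the control (adjusted p = 0.00976).

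Of 46 nuclear-encoded subunits of the respiratory chain and ATP synthase, 30 rose and 0 fell, with a median of 0.52. This split depended on scaling, as the deposited signals gave 18 higher and 6 lower with a median of 0.14 and quantile normalization 22 and 0 with 0.29. NDUFB3, of complex I, read 3351, 3482 and 3011 with inhibitor, against 1139.6 and 1239 with GS alone and 1413 and 1914 in the controls. UQCRB, of complex III, read 7547, 8463 and 8594 against 3686 and 3806 with GS alone and 3659 and 3785 in the controls. Both were higher on every inhibitor array than on any of the other 4; NDUFB3 rose by 1.32 (SE 0.15, adjusted p = 1.03e-05) and UQCRB by 1.10 (SE 0.12, adjusted p = 4.01e-06). Cytosolic ribosomal proteins rose in 36 of 39 genes and fell in 0, with a median of 0.55, but with quantile normalization 6 rose and 2 fell (median 0.03) and in the deposited signals 20 and 0 (0.17). RPL31 rose by 0.75 with 18350.0, 18713 and 19050.0 with inhibitor against 11474 and 11110.0 with GS alone and 11052 and 10848 in the controls. Another probe set of RPL31 gave -0.12 between means from own control. The one used was high on all 3 inhibitor arrays, where the ACTB ratio and the poly-A control signal were also highest, and the part of these in the rise of both lists was not tested.

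Proteasome subunits rose in 15 of 27 genes and fell in 0, with a median of 0.34. This did not stand under other scalings, with 2 higher and 1 lower in the deposited signals (median -0.04) and 4 higher and 1 lower after quantile normalization (median 0.14). The sterol and fatty acid list rose in 10 of 21 genes and fell in 1, with a median of 0.60, while the deposited signals gave 6 higher and 4 lower with a median of 0.24. HMGCS1, of the mevalonate pathway, read 565, 564 and 451 with inhibitor, against 112 and 71.9 with GS alone and 120.1 and 292 in the controls. It was higher on all 3 inhibitor arrays than on the other 4, and rose by 2.31 (SE 0.38, adjusted p = 0.000187). IDI1 rose by 1.70, with 1 other probe set at -0.18 between means from own control, and fatty acid synthase (FASN) by 1.36. Among NF-kappaB cytokines and feedback genes 7 of 17 rose and 3 fell, with a median of 0.01 that was -0.06 in the deposited signals and -0.04 after quantile normalization. CXCL8, interleukin-8, read 1410.1, 1754 and 1162 with inhibitor, against 386 and 238 with GS alone and 552 and 482 in the controls, and rose by 2.43 (SE 0.29, adjusted p = 1.29e-05). NFKBIZ, an inducible regulator of NF-kappaB, read 1366, 1647 and 1158 against 1049 and 297 with GS alone and 98.0 and 80.8 in the controls; it rose by 1.81 (adjusted p = 0.00163), though its other probe set gave -0.39 as the difference between means from own control. CXCL8 was high with the inhibitor alone, whereas NFKBIZ was also above its controls in both GS arrays.

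Of 17 BCL2 family and death receptor genes, 3 were higher and 5 lower, beside 14.0% and 16.8% of all genes, and 1 was higher and 7 lower in the deposited signals. The survival gene BCL2 fell by 1.57 (17.2, 19.2 and 14.4 with inhibitor against 65.6 and 57.1 with GS alone and 38.8 and 45.0 in the controls) and XIAP, a caspase inhibitor, by 1.39. BAD, a pro-death member, read 319, 259 and 267 with inhibitor against 121 and 119 with GS alone and 200.3 and 202 in the controls, and rose by 1.20 (SE 0.21, adjusted p = 0.000342). BCL2 was thus below and BAD above the controls on all 3 arrays, for the probe sets used. The BCL2 values with inhibitor and in the controls lay under the filter level of 40% of the trimmed mean. As differences between means from own control, the other BCL2 probe set gave -0.07, against -1.67 for the one used. For BAD the other gave 0.51, against 1.19. Of 15 p53 targets 2 were higher and 1 lower (median -0.24), but 0 higher and 7 lower in the deposited signals (median -0.61), and CDKN1A (0.16, adjusted p = 0.842) did not pass. Autophagy and lysosome genes were lower in 8 of 24 and higher in 3, with MAP1LC3B at -1.85 and TFEB, a factor of lysosomal genes, at 2.67; TFEB was near background, with at most 41.9 on any of the 7 arrays.

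The counts of the lists in this paragraph stand beside 14.0% higher and 16.8% lower of all genes, and none was tested against these shares. Immediate-early genes were higher in 1 and lower in 5 of 26. MYC read 999.5, 892 and 905 with inhibitor, against 1238 and 1124 with GS alone and 663 and 834 in the controls. It did not pass (-0.39, adjusted p = 0.397). EGR1, an early growth response factor, read 1873, 1185 and 785 with inhibitor, against 6054 and 514 with GS alone and 30.2 and 38.9 in the controls, and the GS arrays spanned the inhibitor values. Its fitted difference from GS was 0.26 (adjusted p = 0.846), while the difference between means from own control was -0.71 for this probe set and 0.70 and 0.97 for its 2 others. Ribosome biogenesis had 4 higher and 4 lower of 22, and 0 and 7 in the deposited signals; metallothioneins with the zinc exporter had 3 and 1 of 7, and 0 and 1 in the deposited signals; interferon genes had 3 and 1 of 17 (median 0.20, and -0.13 in the deposited signals). Extracellular matrix genes had 4 higher and 6 lower of 21, with the collagen COL6A1 at 1.12 (1 other probe set at -0.26 between means from own control) and the matrix protein THBS1 at 2.96. THBS1 read 131, 87.7 and 106 with inhibitor against 79.98 and 3.83 with GS alone and 67.5 and 38.1 in the controls, so its size rested on GS 2.

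How far the inhibitor arrays were from untreated cells was asked in the same model, where all 3 share the block of control 6. That block also held GS 2 and the TM arrays. A fitted difference from the control, here and above, is therefore not a plain difference from control 6. For EGR1 the fit gave 5.73, while the 3 arrays lay 5.40, 4.74 and 4.15 above control 6. For CHAC1 it gave -3.14, while the 3 arrays lay at -4.62, -3.55 and -5.26. Of 11436 genes, 2083 passed (18.2%, and 31.1% unadjusted), 924 higher (8.08%) and 1159 lower (10.1%). Control 6 mattered for this count, which was 111 without it; it was 1303 without GS 1, GS 2 or control 1 and 29 with the 3' to 5' ratios as covariates. In the deposited signals 336 genes were higher and 4026 lower. The ER chaperones had 2 genes higher and 1 lower of 28, with a median of 0.15, and the ATF4 and CHOP genes 2 higher and 17 lower of 37, with a median of -0.80 beside -0.09 for all genes. Nuclear-encoded respiratory subunits had 24 higher and 1 lower of 46 (median 0.41), against 9 higher and 8 lower in the deposited signals (median -0.01) and 12 and 2 after quantile normalization. Ribosomal proteins had 38 higher and 0 lower of 39 (median 0.55), against 14 and 0 in the deposited signals and 5 and 0 after quantile normalization (median 0.04). The deposited signals also turned the ER chaperone median, to -0.28.

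The largest rises over the control were HSPA6 (5.92), EGR1 (5.73), TAF1D (4.80), NFKBIZ (4.38), H2AC8 (4.12) and DNAJB1 (3.88). EGR1 and HSPA6 were also far above control with GS alone, as their values above show. SOX6, a developmental transcription factor, read 138, 193 and 98.1 with inhibitor against 15.8 and 17.3 with GS alone and 8.26 and 4.60 in the controls, and rose by 3.68 (SE 0.40, adjusted p = 1.61e-05). It was low in all 4 arrays without inhibitor, under the filter level of 40% of the trimmed mean, so the size of its rise depends on the 5% offset. Of the largest falls, CHAC1 (-3.14), TNFSF15 (-2.78) and INHBE (-2.57) rested on a high control 6, whereas TRIM25, a ubiquitin ligase of antiviral signalling, did not. TRIM25 read 204, 235 and 291 with inhibitor, against 1537 and 1463 with GS alone and 1085 and 1211 in the controls, and was 2.25 below the control (SE 0.24, adjusted p = 1.6e-05) and 2.63 below GS. ZC3HAV1, an antiviral RNA-binding protein, read 45.3, 49.1 and 63.8 against 272 and 240.0 with GS alone and 345 and 321 in the controls (-2.48 against the control, adjusted p = 0.00019). The scaffold gene DLG1 was 1.97 below the control. In TRIM25, ZC3HAV1 and DLG1 the GS arrays were near the controls and the 3 inhibitor arrays alone were low, for the probe sets used. As differences between means from own control against GS, other probe sets of DLG1 reached 2.20, with 2 of opposite sign, and 1 of ZC3HAV1 gave 0.40.

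Whether the same inhibitors act alike under another stress was asked by subtracting their effect under 2DG, where 2 inhibitor arrays (rotenone and antimycin A) stand against 3 of 2DG alone. The 2DG arrays have other controls, and 1 array for each inhibitor. Of 11436 genes, 855 differed (7.48%, and 24.1% unadjusted), 570 with a more positive effect under GS (4.98%) and 285 with a more negative one (2.49%). Single arrays carried this count: it was 83 without GS 2, 425 without GS+Rot_S, 464 without GS+AA_S and 486 to 489 without GS 1, control 1 or control 6. It was 21 with the 3' to 5' ratios as covariates. For the ER chaperones, the median difference from own control was 0.12, 0.07 and 0.23 in GS+Rot, GS+Rot_S and GS+AA_S, against 1.14 and 1.17 in GS 1 and GS 2. With 2DG it was 0.30 and 0.25 with rotenone and antimycin A, against 1.26, 1.11 and 1.14 without. The inhibitor arrays were far below their own stress alone in both settings, and in the test of the difference 2 of the 28 genes were more positive and 2 more negative (median -0.16).

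The ATF4 and CHOP genes had medians from own control of -1.03, -0.76 and -0.87 with inhibitor under GS, against 1.41 and 0.50 without. Under 2DG they had 0.07 and 0.08 with inhibitor, against 1.20, 1.37 and 1.10 without. Of these 37 genes 3 differed, all more negative under GS, with a median difference of -0.60. XBP1 had own-control differences of -1.40, -1.27 and -1.07 in the GS inhibitor arrays against 2.02 and 0.96 with GS, and of 0.58 and 0.21 against 1.62, 1.45 and 1.15 under 2DG; the difference of effects was -1.44 (SE 0.36, adjusted p = 0.0227). ATF3 was higher under 2DG with inhibitor (3.89 and 3.18 against 1.48, 1.38 and 0.68) and not under GS (0.57, -0.20 and -0.08 against 3.94 and 0.40), a difference of -3.45 (adjusted p = 0.0139). MYC went the same way, with 3.67 and 3.14 against 0.05, 0.41 and -0.32 under 2DG, 0.26, 0.10 and 0.12 against 0.90 and 0.43 under GS, and a difference of -3.56 (SE 0.46, adjusted p = 0.000233). EGR1 (-4.03), HMOX1 (-3.60), HSPA6 (-5.03) and DNAJB9 (-1.96) also had more negative effects under GS.

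In the other direction the genes with a more positive effect under GS included RUSC1-AS1 (4.85), the non-coding SPRY4-IT1 (4.43), the zinc finger gene ZNF224 (4.41) and the semaphorin receptor PLXNA1 (4.01). The ZNF224 probe set used was dim, with a mean of 30.95 over all 38 arrays. Against GS it gave 3.29 as the difference between means from own control, while other probe sets of ZNF224 gave 0.03, 0.01 and 0.35. PLXNA1 had own-control differences of 0.06, 0.20 and 0.49 in the GS inhibitor arrays against -1.25 and -0.70 with GS, and of -2.21 and -3.22 against 0.18, 0.22 and 0.18 under 2DG. Its level was thus near control with the inhibitor under GS and low with it under 2DG. VMP1, by contrast, was high with inhibitor under both stresses (3.05, 3.31 and 2.58 under GS, 4.12 and 4.19 under 2DG), and its difference did not pass (-0.20, adjusted p = 0.802). The mitochondrially encoded COX1, COX2 and COX3 differed, by -1.27, -2.004 and -2.34 (adjusted p = 0.00484, 0.0074 and 0.0219); COX2 was at -0.76, -1.50 and -2.12 with inhibitor under GS against 0.25 and 0.03 without, and at 0.70 and 0.94 under 2DG against -0.01, 0.44 and 0.38. The 2DG inhibitor arrays, with ACTB ratios of 1.24 and 1.37, did not share the high ratio of the GS inhibitor arrays.

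**Figure D5:**
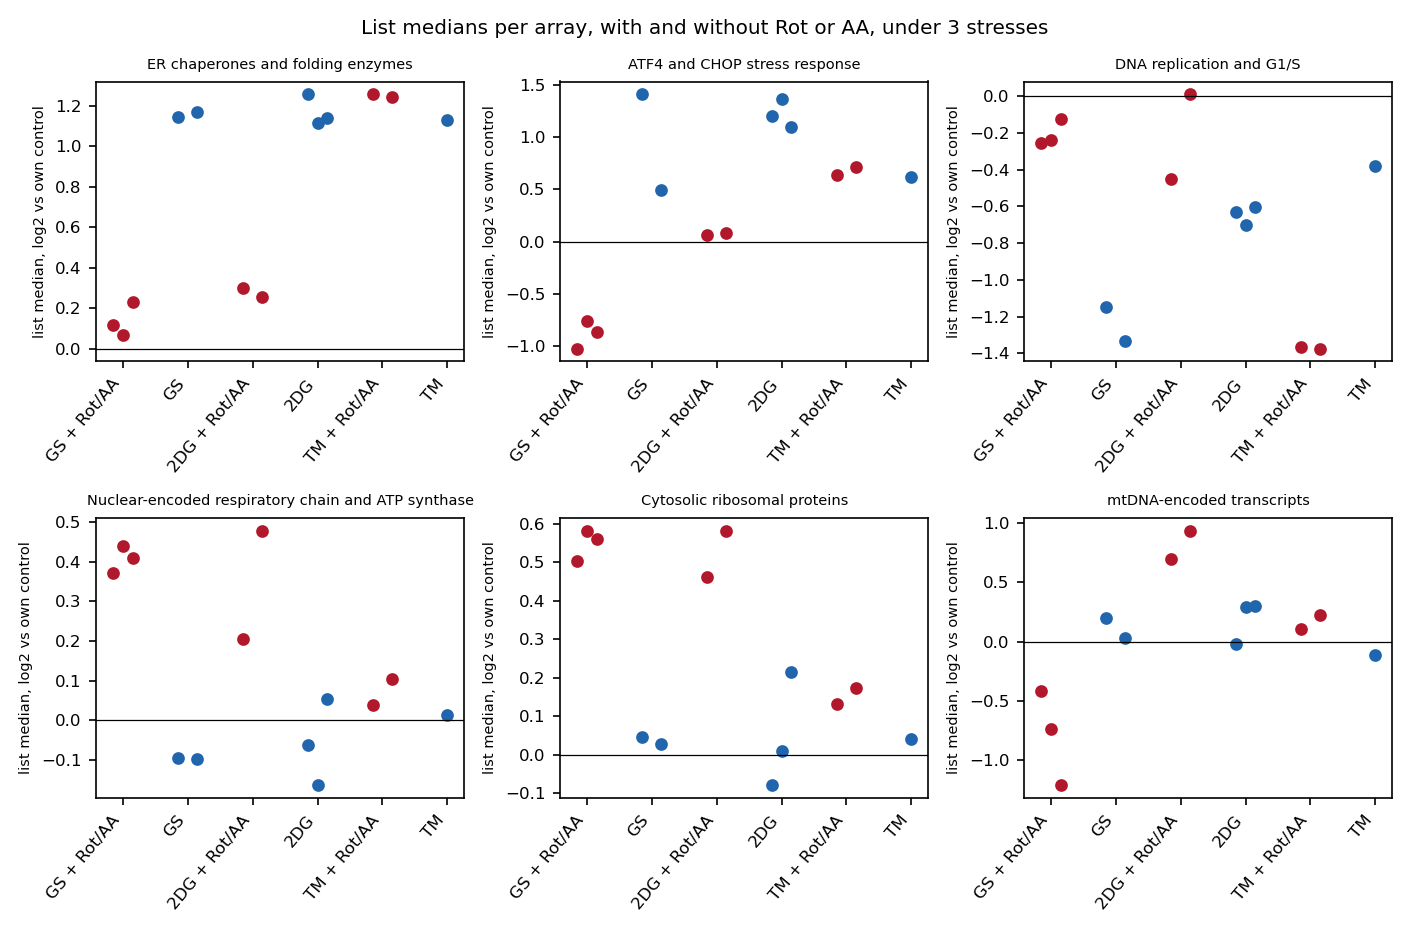
Median log2 difference from own control over the members of 6 lists (vertical axes) for each array with rotenone or antimycin A (red) and with the stress alone (blue) under GS, 2DG and TM. The ER chaperone medians are 0.07 to 0.30 with inhibitor under GS and 2DG and 1.24 to 1.26 with inhibitor under TM.

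The same subtraction against TM used 2 inhibitor arrays and 1 array of TM alone, all of which share control 6 with the GS inhibitor arrays and GS 2. It gave 1786 genes (15.6%, and 30.1% unadjusted), 890 more positive under GS (7.78%) and 896 more negative (7.83%), and 274 without GS 2. In the deposited signals the split was 472 to 1652. With TM, the ER chaperone median was 1.26 and 1.24 with rotenone and antimycin A, against 1.13 without, so the inhibitor arrays were as high as TM alone. In the test 17 of 28 genes had a more negative effect under GS and 1 a more positive one (median -1.27). HSPA5 stood at 1.53 and 1.57 with TM and inhibitor against 1.34 with TM, and its effect was 0.82 more negative under GS (SE 0.23, adjusted p = 0.0212). Of the 37 ATF4 and CHOP genes 25 were more negative under GS and 0 more positive (median -1.798). The difference of effects was -4.02 for TRIB3 (adjusted p = 0.000246), -3.76 for ASNS (adjusted p = 7.65e-05) and -4.95 for DDIT3 (adjusted p = 0.00329).

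Replication genes moved the opposite way under the 2 stresses. Their median from own control was -0.25, -0.24 and -0.12 with inhibitor under GS against -1.15 and -1.33 with GS alone, and -1.37 and -1.37 with inhibitor under TM against -0.38 with TM. Of the 33 genes 27 had a more positive effect under GS and 0 a more negative one, with a median of 1.89. E2F1 stood at -1.90 and -3.11 with TM and inhibitor against -0.24 with TM, and at 0.20, 0.57 and 0.41 under GS with inhibitor against -1.56 and -1.91; the difference was 4.49 (SE 0.55, adjusted p = 0.000145). ID1 differed by 4.57 (adjusted p = 0.00135) and ID3 by 4.29 (adjusted p = 0.0227). As TM alone is 1 array, its spread was taken from the other groups of the model.

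Rotenone with and without floating cells, and antimycin A against rotenone, are comparisons of 1 array with 1 array, so sizes are given without a test. GS+Rot_S differed from GS+Rot by more than 2-fold in 335 of 11436 genes, 185 higher (1.62%) and 150 lower (1.31%). GS+AA_S differed from GS+Rot_S in 333, with 138 higher (1.21%) and 195 lower (1.71%). With an offset of 20% of the trimmed mean, which damps dim genes, these counts were 32 and 40, so most of the genes were near background. The ER chaperone list had 0 members over 2-fold higher and 1 lower in GS+Rot_S against GS+Rot, with a median difference of -0.07, and the ATF4 and CHOP list 3 and 0 with 0.10; between GS+AA_S and GS+Rot_S the medians were 0.07 and -0.03.

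Among the 6762 genes bright on average over all 38 arrays, 6 differed over 2-fold between GS+Rot_S and GS+Rot, all chosen here after their values were seen. AKR1C2 was dim on these arrays, at 56.5 in GS+Rot and 22.7 in GS+Rot_S. ADAM15 (37.5 in GS+Rot_S and 145 in GS+Rot), MINDY3, GOLPH3L and AKR1C2 were lower with floating cells, and AHR (185 in GS+Rot_S and 79.8 in GS+Rot) and CHTF18 (329 in GS+Rot_S and 139 in GS+Rot) were higher. Between GS+AA_S and GS+Rot_S the largest was RNA45SN5, the precursor of ribosomal RNA, which has near-identical copies that a probe set cannot separate. It read 311, 596 and 2749.6 in GS+Rot, GS+Rot_S and GS+AA_S, against 126 and 115 with GS alone and 65.0 and 84.2 in the controls. GS+AA_S was 2.19 above GS+Rot_S, and all 3 were above the other arrays, with a fitted difference from GS of 2.62 (SE 0.74, adjusted p = 0.0112). COX3 was 1.49 lower in GS+AA_S (192, 145 and 48.1 in the same order), and EIF5A, a translation factor, was 1.13 lower (1329.6, 1153 and 523). The mitochondrially encoded ATP6 (7745, 5158 and 2706) and COX2 followed the same order, GS+Rot above GS+Rot_S above GS+AA_S, while ND2 ran the other way. With 1 array each, a difference between rotenone and antimycin A cannot be told apart from a difference between cultures, and the 2 doses are in different units.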

How the data were processed

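Total RNA was labelled as biotin cRNA and hybridised to Affymetrix U133 Plus 2.0 arrays, per the labels' protocols. The deposited intensity values of 54675 probe sets came from MAS5, per the submitters' processing notes; its version and the annotation were not given in the sources used here. The normalization probe sets have a trimmed mean of 4789 on the HT-1080 arrays, so the deposited arrays were scaled to them. Here each array was rescaled to a trimmed mean (2% off each end) of 113. An offset of 5% of the trimmed mean was added, log2 was taken, and probe sets above 40% of the trimmed mean on at least 2 arrays were kept (21441). Each of the 11436 genes was represented by its brightest probe set on average; those with several symbols (1801) or none (11777) were left out, as were 232 with a missing value. Of 105 named genes with more than 1 probe set, 27 had a probe set of opposite sign.

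The model was fitted in R 4.3.3 with limma 3.58.1 (trend, Benjamini-Hochberg adjustment, threshold 0.05) to all 38 arrays in 15 groups with the 12 control sets as a block; it had 11 residual degrees of freedom. Tables and figures used python 3.11.15, pandas 2.3.3, numpy 2.4.6 and matplotlib 3.10.9. The pairing comes from the labels, which name each array's control. Among groups with several controls, 8 arrays, some of another cell line, deviated together with their control (r of 0.40 to 0.67 across 4110 genes). GS 1 and GS 2 mirror each other in this check and give the same r, 0.58. The 3 inhibitor arrays share a control, so their pairing could not be checked in this way. Tested on simulated data with 11436 genes, the comparison with GS alone recovered 43% of genes changed by 1 and 90% of those changed by 2 on the log2 scale. The number of arrays limits the precision.

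The arrays, the 28 gene lists (581 of 671 genes measured) and the tests were chosen with earlier results of these data known. Named genes are 16 stress genes, the 12 largest rises and falls of each tested comparison (without overlap for the comparison with GS alone), up to 4 members a list and the 10 largest differences each way between single arrays. Other genes were chosen after their values were seen: CALR, CANX, HYOU1, PPIB, FKBP11, SEC62, NUPR1, PHGDH, PSAT1, FGF21, SLC6A9, ATF5, HARS1, SQSTM1, TXN, NQO1, PRKAA1, CDK4, GAS5, EIF5A and the genes that differed between expressed single arrays. Alternatives were other scalings, offsets, filters, probe set rules, arrays and covariates.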

Additional observations from a re-analysis of the deposited data

Results flagged for a closer look

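The effect of rotenone or antimycin A differed between stresses by a test of the difference itself, limma's interaction contrast, and among the untreated HT-1080 controls no lone outlying array was found in 33 measures; the inhibitor and GS arrays are too few for that test. Against 2DG the effect differed in 855 genes. It was more negative under GS for HSPA6 (-5.03), EGR1 (-4.03), HMOX1 (-3.60), MYC (-3.56), ATF3 (-3.45), DNAJB9 (-1.96) and XBP1 (-1.44), and more positive for RUSC1-AS1 (4.85), all on the log2 scale. Against TM it differed in 1786 genes. It was more negative under GS for SPX (-5.41), INHBE (-5.00), DDIT3 (-4.95), HMOX1 (-4.29), TRIB3 (-4.02), CHAC1 (-3.85), ASNS (-3.76), DNAJB9 (-3.12), XBP1 (-2.84), ATF3 (-2.70), HERPUD1 (-2.35), HSP90B1 (-1.73), MYC (-1.49), ATF4 (-0.99) and HSPA5 (-0.82). It was more positive for E2F1 (4.49) and ID1 (4.57). The 2DG and TM arrays with inhibitor had lower ACTB 3' to 5' ratios than the GS arrays with inhibitor, and the part of this in the differences was not tested gene by gene.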

How the results depend on the processing

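Settings not named here left the counts and both list medians close to those reported; without the other arrays of low signal, also left out after seeing the data, 3818 genes passed against GS alone and 2450.0 against the control. Leaving out 1 array at a time gave 511 to 3082 genes against GS alone, 111 to 1735 against the control, 83 to 852 against 2DG and 274 to 1678 against TM, and medians of -1.11 to -0.99 for ER chaperones and -2.23 to -1.61 for ATF4 and CHOP genes; against the control, DNAJB9 ran between -0.42 and 0.46, ATF4 between -0.38 and 0.50, CHAC1 between -4.48 and 0.89 and VEGFA between -0.87 and 0.60. With the 3' to 5' ratios as covariates the 4 counts were 609, 29, 21 and 685, and with the poly-A signal, added after seeing the data, 6, 1, 0 and 75; beside the 0, limma gave 795 genes at an unadjusted p under 0.05. Without the replicate block, 3424 genes passed against GS alone and 3705 against the control, ATF4 against the control was 0.17 and the collagen median 0.10. Against the control, 4362 genes passed in the deposited signals, 3332 with the 7 arrays only and 689 with GS+Rot alone, which gave 1715 against GS. Without a filter 554 genes passed against 2DG and the collagen median was 0.080. The single-array counts of GS+Rot_S against GS+Rot and of GS+AA_S against GS+Rot_S were 584 and 563 with an offset of 1%, 32 and 40 with 20%, 1851 and 1970.0 without a filter and 130.0 and 127 with a filter at 100%. The ER chaperone median was -1.42 in the deposited signals, -1.25 after quantile normalization, -1.37 with the mean of probe sets and -1.11 with the poly-A signal.

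Signs turned as follows. In the deposited signals MYC against the control was -0.15, and the heat shock, proteasome and interferon medians were -0.16, -0.043 and -0.13. DNAJB9 against the control was 0.25 with the mean of probe sets, 1.19 with the 3' to 5' ratios, 0.17 with GS+Rot alone, 0.0055 with the rotenone arrays only or without GS+AA_S, 0.46 without control 6 and 0.33 with the poly-A signal. The mitochondrial chaperone median was 0.062 with the mean of probe sets, 0.084 with GS+Rot alone and 0.26 with the poly-A signal. With the 3' to 5' ratios ATF3 and MYC against GS were 0.25 and 0.059, and ATF4 and VEGFA against the control 0.027 and 0.066. Without control 6, ATF4, CHAC1 and VEGFA against the control were 0.50, 0.89 and 0.60. With the poly-A signal HSPA6 and MYC against GS were 2.51 and 0.13, ATF4 against the control 0.12 and the interferon median -0.18. The cause of these changes was not tested. The small number of arrays, the high 3' to 5' ratios of all 3 inhibitor arrays and the sharing of control 6 limit every comparison here.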
